A study of Mus musculus with 36 samples.

Results

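The 52 genes described here encode the machinery that carries a cell through mitosis: the kinases and cyclins of mitotic entry, the condensin I complex that compacts chromosomes, the kinetochore that ties chromosomes to the spindle, the checkpoint that watches this attachment, the proteins that release the sister chromatids, the spindle motors and the proteins of cytokinesis. They were taken by gene symbol, for their known part in mitosis, and all 52 were found among the 56748 genes of the deposited count table. By function they fall into 9 groups: 9 genes of mitotic entry, 2 proliferation markers, 5 condensin subunits, 4 subunits of the chromosomal passenger complex, 9 kinetochore and centromere genes, 4 checkpoint genes, 6 genes of anaphase and cohesion release, 7 spindle genes and 6 genes of the midzone and cytokinesis.

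In vertebrate cells most of these genes are transcribed late in the cell cycle, in G2 and M phase, and are kept low in resting cells. The DREAM complex represses them in quiescence, and B-MYB with the MuvB core and the factor FOXM1 switches them on in dividing cells, through promoter elements known as the CHR (cell cycle genes homology region) and the CCAAT box, the site of NF-Y. Naive T cells are resting cells, and antigen or an empty niche drives them to divide, so that Mki67, which encodes the Ki-67 antigen, is the usual marker of a T cell that has left rest.

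The libraries are polyA RNA-seq of mouse CD4 T cells from lines deficient for HP1α (HP1a, gene Cbx5) or HP1γ (HP1g, gene Cbx3), which are readers of methylated histone H3 in heterochromatin, each compared with wild-type littermates on a mixed 129/Sv and C57BL/6 background, as young adults. In the HP1a line a floxed allele had been excised through the germ line with CMV-cre, so that the knockout (KO) affected every tissue, and in the HP1g line the floxed allele was excised in T cells by Cd4-cre. The HP1g WT littermates were homozygous for the floxed allele without the cre, whereas the HP1a WT littermates carried the unmodified allele. Naive cells were taken from the spleen before transfer. Tconv cells were recovered 3 weeks after naive WT or KO CD4 T cells had been injected into lethally irradiated hosts, C57BL/6 J or CD45.1+ B6 mice, along with marrow of C57BL/6 J and of semi-allogeneic B6D2F1 donors. In the TconvTreg groups other hosts, prepared alike, had also received WT regulatory T cells (Treg) expanded ex vivo, and Tconv were sorted from these hosts. The labels do not give the Treg dose, and the paper describes various ratios, so the dose may differ between the lines. The paper adds that the Treg ratio of its HP1g RNA-seq did not effectively repress WT cells. The sort took cells whose T cell receptor recognises the B6D2F1 graft and was gated against the Treg and against B6D2F1 cells. The hosts are lymphopenic, so division driven by the empty niche and division driven by the alloantigen both occur in the grafted groups. In bulk libraries a lower share of cells in mitosis and less RNA per such cell cannot be told apart.

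There were 2 lines, 2 genotypes and 3 conditions, hence 12 groups of 3 libraries, and 35 libraries were used. The remaining TconvTreg HP1g KO library was left aside for abnormal quality, following the study. Depth ran from 37029519 to 63042245 estimated counts per library, with a median of 46844690, and 20158 to 23340 genes were detected. Levels are in CPM, a gene's counts scaled to library size by TMM, and 3 counts, taken as the limit of detection, correspond to 0.0446 to 0.0816 CPM. All 10 T cell markers, Cd3e and Cd4 among them, had a mean of at least 1 CPM in every group. The targeted transcripts were lower in the KO but not absent. Cbx5 ranged from 9.25 to 12.2 CPM in naive HP1a KO against 18.6 to 24.7 CPM in WT, and Cbx3 from 65 to 80.8 CPM in naive HP1g KO against 106 to 200.2 CPM in WT. For the proteins, the paper reports with western blots that naive KO cells lacked HP1α completely and HP1γ almost completely. These counts over the whole gene therefore do not measure how much protein remained. The labels do not say whether the libraries of a group came from separate mice, so p-values measure the spread between these libraries, which may be partly technical. Summed transcripts of 10 erythroid markers reached 3253 to 5705 CPM in the 4 grafted HP1g libraries numbered 1, against at most 735.9 CPM in any other library, and the comparisons that use these libraries are given below with all libraries and, as an alternative chosen after the data were seen, without these 4.

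To show where these genes could be switched on together, the 300 bases around each start site (250 upstream and 50 downstream, GRCm39 with GENCODE annotation) were searched on both strands for the CHR, spelled TTTGAA or TTCGAA, and for CCAAT. The CHR letters occurred in 28 of the 52 promoters (53.8%), against 18.7% of 21757 protein-coding promoters of the same length. CCAAT occurred in 36 (69.2% against 39.9%), at least 2 copies in 22 (42.3% against 12.7%), and both elements in 23 (44.2% against 8.23%). All 6 midzone and cytokinesis promoters held a CHR match, and Top2a held 4 CHR and 6 CCAAT matches. Of 37 DNA replication genes, which are active earlier in the cycle, 10.8% held a CHR match and 56.8% CCAAT. Of 64 other mitosis genes 45.3% held a CHR match and 56.2% CCAAT, and of 11 cell cycle brakes 72.7% held CCAAT. These matches describe letters in a window and are not evidence that a factor bound there. Windows of 120 bases directly upstream of the start site are printed 5′ to 3′ on the gene's strand, with CHR and CCAAT matches on either strand in capitals (ATTGG is CCAAT and TTCAAA is TTTGAA on the other strand). Cdk1 and Aurkb stand for kinases that rose strongly after the graft. Ccnb2 stands for a promoter whose 2 CHR matches lie outside the 120 bases shown, 1 further upstream and 1 downstream of the start. Kif23 stands for a CHR promoter whose gene rose least of the midzone and cytokinesis genes. No base of the Ccnb2 and Aurkb windows, 4 bases of the Cdk1 window and 1 base of the Kif23 window are annotated as exon, and the Cdk1 window lies within the span of a longer annotated transcript of this gene.
Cdk1, chr10:69188769-69188888, minus strand: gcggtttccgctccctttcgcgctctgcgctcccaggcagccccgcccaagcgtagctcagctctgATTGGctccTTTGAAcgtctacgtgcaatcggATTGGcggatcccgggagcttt
Aurkb, chr11:68936347-68936466, plus strand: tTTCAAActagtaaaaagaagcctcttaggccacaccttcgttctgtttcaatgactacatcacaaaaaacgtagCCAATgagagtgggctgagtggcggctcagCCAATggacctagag
Ccnb2, chr9:70328875-70328994, minus strand: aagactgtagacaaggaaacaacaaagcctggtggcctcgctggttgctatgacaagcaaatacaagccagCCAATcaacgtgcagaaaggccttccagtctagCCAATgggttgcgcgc
Kif23, chr9:61854074-61854193, minus strand: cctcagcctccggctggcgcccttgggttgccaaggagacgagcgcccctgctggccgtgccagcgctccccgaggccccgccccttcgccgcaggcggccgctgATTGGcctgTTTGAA

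The first question was how far the genes rise when naive cells enter the graft. In the 12 naive libraries 16 of the 52 genes stayed under 1 CPM in every library, among them Cdk1, the kinase that drives mitosis, and Aurkb, the kinase of the chromosomal passenger complex. Another 20 genes were above 1 CPM in every naive library, among them Cenpa, Ndc80, Pttg1, Mad2l1, Smc2 and Smc4. In the 23 grafted libraries all 52 genes were above 1 CPM in every library. For 46 genes every grafted library lay above every naive library, whatever the line, genotype or Treg (6.3% of the 19700 genes expressed), and the other 6 were Smc2, Smc4, Cenpa, Ndc80, Pttg1 and Kif23. The naive and grafted cells differ in graft, sort and cell selection as well as in activation, and these cannot be told apart.

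**Figure D1:**
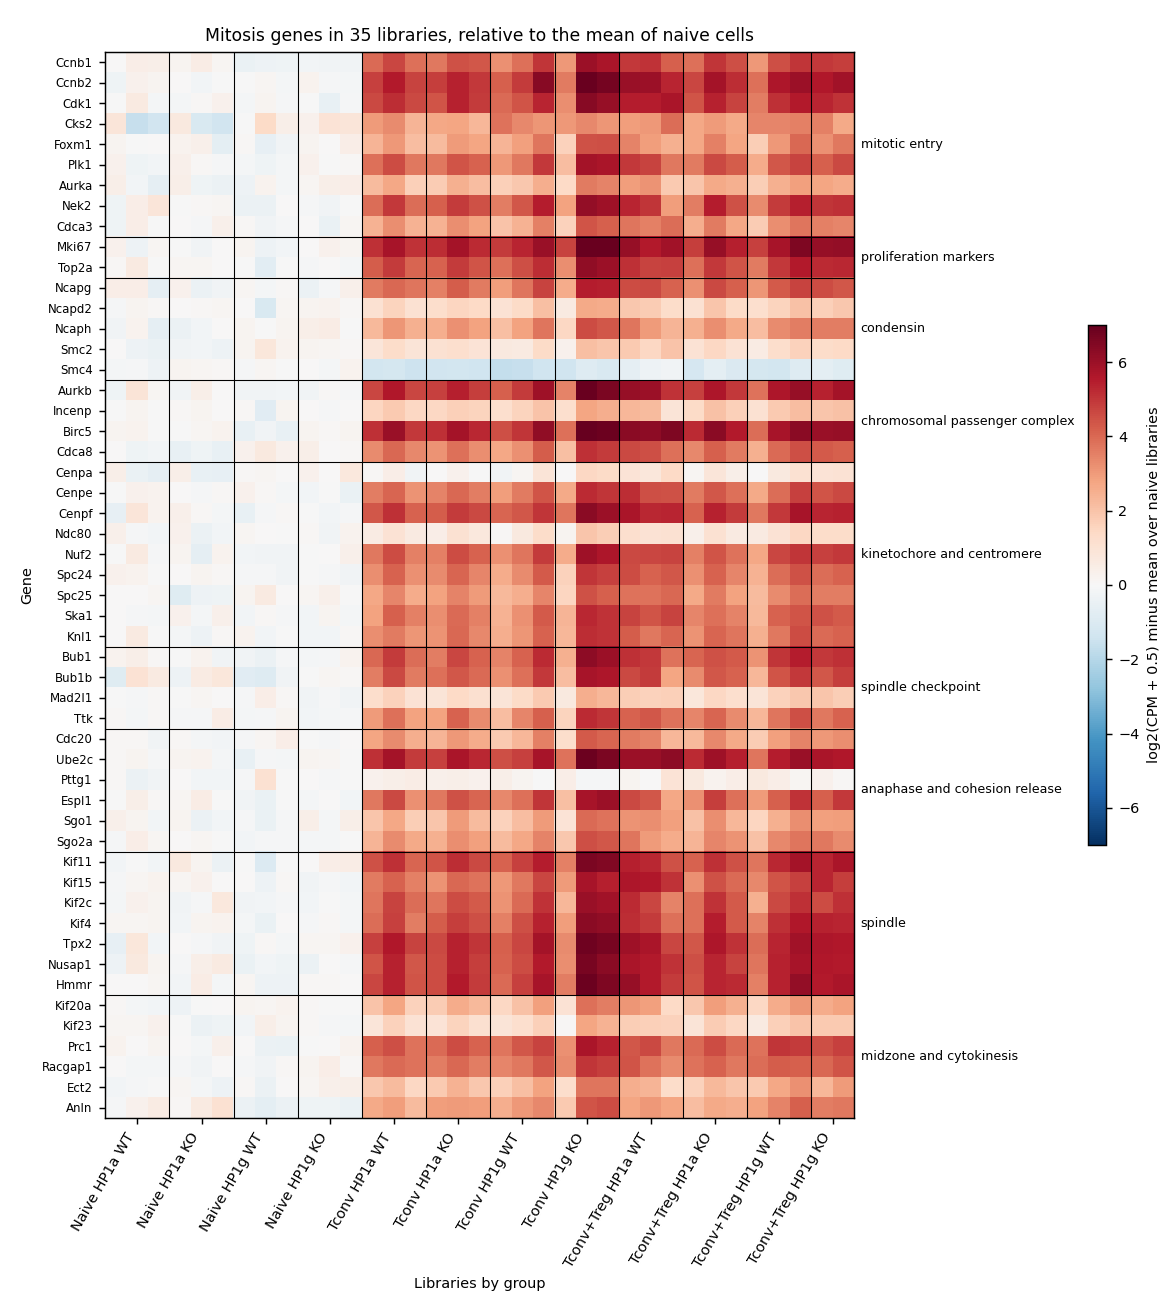
Each row is a mitosis gene and each column a library, grouped by condition, line and genotype, and colour gives log2(CPM + 0.5) minus the mean over the naive libraries. Almost all rows turn from naive to grafted columns, Smc4 turns the other way, and single columns of the grafted HP1g groups stand out over nearly all rows.

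Between Tconv and naive cells of the same line and genotype, 48 of the 52 genes were called higher in HP1a WT, where 12.9% of all genes tested were called higher, and 48 in HP1a KO (12.4% of all genes). In the HP1g line 47 were called higher in WT (15% of all genes) and 49 in KO (15.7% of all genes). A call here is a change of over 1 on the log2 scale with an adjusted p under 0.05, from edgeR's quasi-likelihood test and the Benjamini-Hochberg method over all genes tested. The gene called lower was Smc4 in each of the 4 comparisons, where 10.2%, 7.24%, 8.55% and 7.3% of all genes were called lower. The median log2 fold change of the 52 genes was 4.03 in HP1a WT, 4.26 in HP1a KO, 4.69 in HP1g WT and 5.44 in HP1g KO, against −0.04, −0.01, −0.03 and 0.02 for all genes tested. No library of Tconv overlapped the naive ones in the higher direction for 50, 50, 47 and 48 genes (29.5%, 28.7%, 27.4% and 27.5% of all genes). Each of these comparisons has its own naive controls. With the grafted HP1g libraries numbered 1 left out, 47 genes were called higher in HP1g WT and 50 in HP1g KO (21.9% and 27.3% of all genes called in either direction), with medians of 5.01 and 5.93. Markers of other cells differed too: 10 B cell markers summed to 548.7 to 894.6 CPM in naive libraries and 94.5 to 216.5 CPM in Tconv, and 10 myeloid markers to 6.44 to 14.4 CPM and 7.01 to 321.8 CPM. Their part in the rise was not tested.

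Mitotic entry is driven by cyclin B with Cdk1, by Plk1 and by the transcription factor Foxm1, and all 9 genes of this group were called higher in each of the 4 comparisons. Cdk1 measured 0.37, 0.859 and 0.297 CPM in naive HP1a WT cells and 21.2, 31.5 and 21.5 CPM in Tconv. In HP1a KO it measured 0.295, 0.442 and 0.596 CPM in naive cells and 18 to 36.1 CPM in Tconv. The naive and Tconv ranges were far apart in both genotypes, and the log2 fold change was 5.62 ± 0.42 (SE) in WT and 5.91 ± 0.38 in KO, with adjusted p = 2.39e-05 and 3.93e-05 by edgeR's quasi-likelihood test. In the HP1g line the change of Cdk1 was 5.83 ± 0.47 in WT (adjusted p = 8.89e-05, edgeR) and 7.36 ± 1.10 in KO (adjusted p = 0.00363, edgeR), the larger error of the KO going with a Tconv library at 8.01 CPM beside others at 60.6 and 73 CPM. Ccnb1, cyclin B1, rose by 4.29, 4.29, 5.24 and 6.23 on the log2 scale in HP1a WT, HP1a KO, HP1g WT and HP1g KO. Plk1, the polo kinase of centrosomes and kinetochores, rose by 4.84, 4.61, 5.09 and 5.74, and Foxm1 by 2.84, 3.05, 3.79 and 4.07. Aurka had the smallest change of the group in HP1a WT and KO and HP1g WT, and Cks2, a small partner of Cdk1, in HP1g KO, where it measured 11.9 to 18.8 CPM in naive cells.

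Mki67 and Top2a, the decatenating topoisomerase of chromosome condensation, were called higher in each comparison. Mki67 measured 1.81, 0.951 and 1.56 CPM in naive HP1a WT cells and 63.3, 99.6 and 61.8 CPM in Tconv. Its log2 fold change was 5.70 ± 0.30 (SE, adjusted p = 4.57e-06, edgeR) in HP1a WT, 5.98 in HP1a KO, 6.10 in HP1g WT and 6.73 ± 0.75 (adjusted p = 0.00115, edgeR) in HP1g KO. Top2a rose from 4.65 to 7.61 CPM in naive HP1a WT cells to 90.6 to 155.3 CPM in Tconv, by 4.33 on the log2 scale, and by 4.55, 5.01 and 5.82 in the other comparisons. Both genes thus lay far above every naive library in every grafted library.

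**Figure D2:**
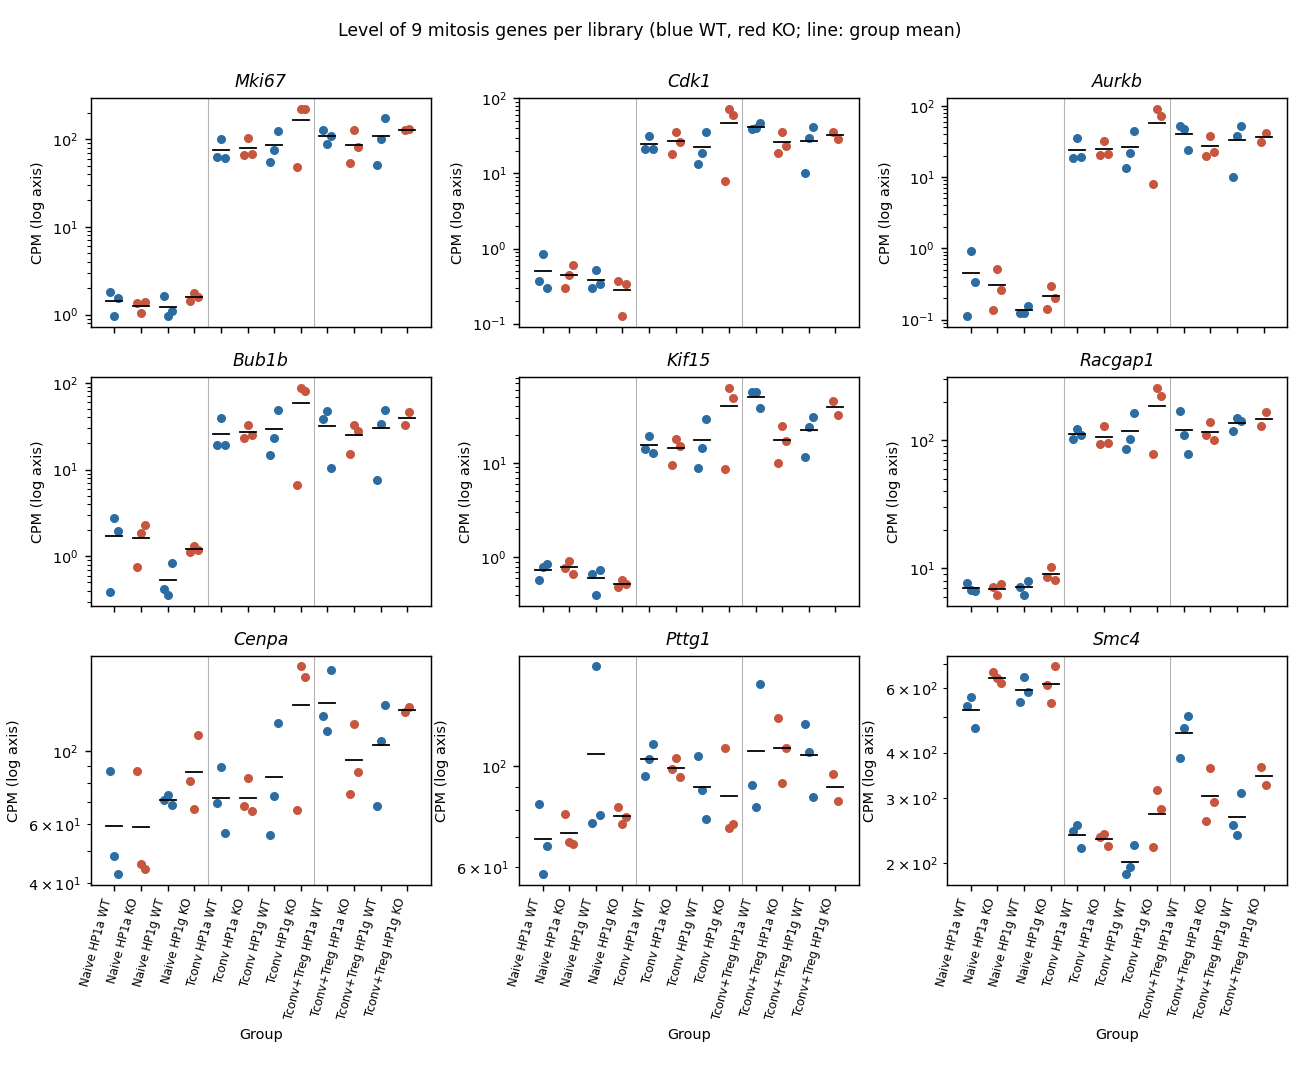
Each panel shows a gene, with the CPM of each library on a log axis against the 12 groups, WT in blue, KO in red and the group mean as a line. Cdk1 and Mki67 rise in every grafted group, Smc4 falls from at least 467.3 CPM in naive cells to at most 315.3 CPM in Tconv, and Kif15 stands higher in HP1a WT Tconv with Treg (38.5 to 57 CPM) than in HP1a Tconv without them.

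The condensin I subunits did not move alike. Condensin I is a ring of the ATPases Smc2 and Smc4 with the subunits Ncapd2, Ncapg and Ncaph, and Smc2 and Smc4 are shared with condensin II. Ncapg rose by 4.0, 4.41, 4.36 and 5.48 on the log2 scale, and Smc2 by 1.29, 1.35 and 1.55 in HP1a WT, HP1a KO and HP1g KO, while in HP1g WT its difference of 0.49 was not called (adjusted p = 0.2, edgeR's quasi-likelihood test). Smc4 measured 537.9, 566.2 and 467.3 CPM in naive HP1a WT cells and 244, 253.6 and 219.1 CPM in Tconv. In naive HP1a KO cells it measured 620.3 to 663.6 CPM and in Tconv 222.2 to 239.9 CPM. The ranges did not overlap in either genotype, and the log2 fold changes were −1.12 ± 0.11 (SE, adjusted p = 7.4e-05, edgeR) and −1.45 ± 0.07 (adjusted p = 1.27e-05, edgeR). In the HP1g line Smc4 went from 549.7 to 642.3 CPM to 186.3 to 223.2 CPM in WT, and from 545.8 to 688.4 CPM to 220.5 to 315.3 CPM in KO, changes of −1.56 (adjusted p = 0.000272, edgeR) and −1.155 (adjusted p = 0.000683, edgeR). Smc4 hosts the microRNA genes Mir15b and Mir16-2 in its span on chromosome 3, and reads of the host and of primary microRNA transcripts cannot be told apart by gene counts.

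The chromosomal passenger complex, in which Aurkb is held at the centromere by Incenp, Birc5 (survivin) and Cdca8 (borealin), was called higher as a whole, 4 of 4 genes in each comparison. Aurkb measured 0.111, 0.914 and 0.342 CPM in naive HP1a WT cells and 18.4, 35.5 and 18.9 CPM in Tconv. Its log2 fold change was 5.75 in HP1a WT, 6.37 in HP1a KO, 7.59 in HP1g WT and 8.10 in HP1g KO, among the 3 highest of the 52 genes in the last 3. Birc5 rose by 6.01, 6.04, 7.03 and 7.0. Incenp, already at 21.1 to 24.9 CPM in naive HP1a WT cells, rose by 1.57 in that comparison, the least of the complex.

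Of the 9 kinetochore and centromere genes, 7 were called higher in HP1a WT, HP1a KO and HP1g WT and 8 in HP1g KO. Cenpe, the kinetochore motor that carries chromosomes to the spindle equator, rose by 3.84, 4.13, 4.07 and 5.41 on the log2 scale. Ska1, which couples kinetochores to microtubules, had the largest change of all 52 genes in HP1a WT, 6.78 ± 0.58 (SE, adjusted p = 4.02e-05, edgeR), from 0.0297 to 0.0925 CPM in naive cells, near the limit of detection, to 3.54 to 10 CPM. The exceptions were Cenpa, the histone variant that marks the centromere, and Ndc80, the outer kinetochore subunit that binds microtubules. Cenpa measured 87.1, 48.3 and 42.5 CPM in naive HP1a WT cells and 69.8, 89.7 and 56.4 CPM in Tconv. In HP1a KO it measured 86.8, 45.6 and 44.2 CPM in naive cells and 65.9 to 82.8 CPM in Tconv. The ranges overlap in both genotypes through naive replicate 1 alone. Its differences of 0.29, 0.31, 0.23 and 0.69 were called in none of the 4 comparisons (adjusted p = 0.466, 0.419, 0.548 and 0.246 by edgeR's quasi-likelihood test). Without naive replicate 1, all 52 genes passed an unadjusted p under 0.05 in HP1a WT and in HP1a KO (58.9% and 54.6% of all genes). Cenpa was still not called there. Ndc80 differed by 0.73, 0.88 and 0.74 in the first 3 comparisons, under the fold threshold, and by 1.48 in HP1g KO, where it was called (adjusted p = 0.0473, edgeR).

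All 4 spindle checkpoint genes were called higher in each comparison. Bub1b, the checkpoint protein BubR1, rose by 3.92, 4.06, 5.76 and 5.64 on the log2 scale, and Bub1 by 7.59 in HP1g WT, where it had the largest change of the 52 genes beside Aurkb. Bub1 measured 0.0743, 0.0209 and 0.131 CPM in naive HP1g WT cells, near or below the limit of detection. The size of its change is therefore uncertain. Mad2l1, the checkpoint effector that holds Cdc20, was already at 15.7 to 17.5 CPM in naive HP1a WT cells and rose by 1.33, 1.14, 1.25 and 2.31. Of the anaphase genes, Cdc20, which activates the anaphase-promoting complex, rose by 3.08, 2.96, 2.69 and 3.89, and Ube2c, the ubiquitin-conjugating enzyme of that complex, by 6.44 in HP1a WT. Pttg1, securin, the inhibitor of separase, was the member of this group that was called in no comparison. It measured 82.8, 58 and 67 CPM in naive HP1a WT cells and 95.1, 103.6 and 112.3 CPM in Tconv, a difference of 0.59 (adjusted p = 0.00819, edgeR) that stayed under the fold threshold. Its differences were 0.49 in HP1a KO, −0.24 in HP1g WT and 0.17 in HP1g KO. Pttg1 overlaps Slu7 on the other strand, and reads of both cannot be told apart in a kit that does not mark strand. This limit is not particular to Pttg1, since called genes such as Cdc20 (Elovl1) and Prc1 (Rccd1) also overlap a gene on the other strand.

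All 7 spindle genes and all 6 midzone and cytokinesis genes were called higher in each comparison. Kif11, the motor that pushes spindle poles apart, rose by 5.24, 4.93, 5.76 and 6.04 on the log2 scale, and Tpx2, which nucleates spindle microtubules, by 5.87, 6.27, 6.30 and 6.87. Hmmr, a spindle protein, was among the 3 highest of the 52 genes in HP1a WT (6.45), HP1a KO (6.52) and HP1g WT (7.52). The midzone genes changed less as a group, with a median of 2.74 in HP1a WT against 5.48 for the spindle genes. Prc1, which bundles midzone microtubules, rose by 4.27, 4.41, 4.95 and 5.31, and Anln, a scaffold of the contractile ring, by 3.05, 2.84, 5.63 and 6.01. Kif23, the midzone motor of centralspindlin, was at 12 to 13.6 CPM in naive HP1a WT cells and rose there by 1.03, just over the fold threshold. It rose by 1.52 in HP1a KO, 1.17 in HP1g WT and 2.295 in HP1g KO, the least of the midzone group each time.

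**Figure D3:**
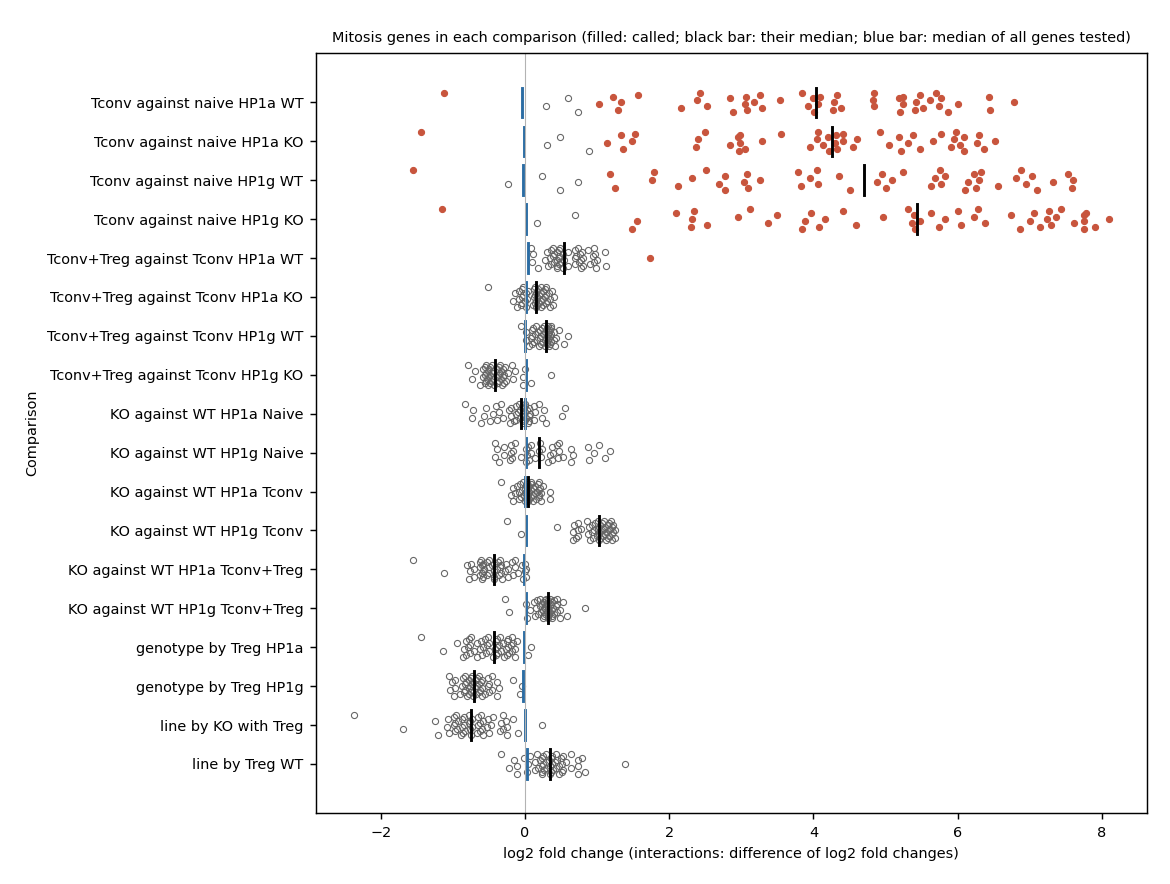
For each comparison on the vertical axis, points give the log2 fold change of the mitosis genes (for interactions, the difference of log2 fold changes), filled where called, with a black bar at their median and a blue bar at the median of all genes tested. The 4 comparisons of Tconv with naive cells have medians of 4.03 to 5.44, and in the other comparisons 1 point is filled, Kif15 in HP1a WT with Treg.

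Other genes of the cell cycle, from lists chosen by function, moved to different extents in the same comparisons. Of 64 other mitosis genes, 39, 40, 42 and 48 were called higher in HP1a WT, HP1a KO, HP1g WT and HP1g KO, with medians of 1.83, 1.74, 2.16 and 2.85. Of 37 DNA replication genes, 17, 15, 18 and 22 were called higher, with Mcm10, a replication initiation factor, highest in each. Of the 3 subunits particular to condensin II, Ncapg2 was called higher in each comparison (by 2.78 in HP1a WT and 5.24 in HP1g KO) and the other two in none. No gene of the 9 of cohesin, the ring that holds sister chromatids, was called in any of the 4 comparisons, by medians of −0.47, −0.37, −0.17 and −0.29. Of 15 genes of the anaphase-promoting complex 0, 0, 1 and 1 were called higher, and of 11 DREAM and MuvB genes 0, 0, 1 and 2. Among 11 cell cycle brakes, Cdkn1a, the inhibitor p21, rose most in each comparison, and Foxo1 fell by 1.08 in HP1a WT.

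The second question was whether co-injected Treg change these genes in the recovered Tconv. In HP1a WT cells all 52 genes had a log2 difference above 0 with Treg (52.6% of all genes), from 0.08 (Pttg1) to 1.73 (Kif15), with a median of 0.54 against 0.04 for all genes tested. One gene was called higher, Kif15, a spindle motor that can stand in for Kif11, where 3.54% of all genes were called higher. At an unadjusted p under 0.05, 20 genes were higher (12.2% of all genes), and in 17 genes the libraries did not overlap (15.7% of all genes). The share called was thus no higher than among all genes, whereas the shares past the unadjusted test and without overlap were above those of all genes. These values moved with single libraries: without HP1a WT Tconv replicate 1, 9 genes passed the unadjusted test (14.9% of all genes, in either direction), and without replicate 3 of HP1a WT with Treg 38 passed (30.9%), while the median ran from 0.40 without replicate 1 with Treg to 0.84 without Tconv replicate 2. Replicate 3 of HP1a WT with Treg stood apart from its partners over all genes (chi-square per gene 296 and 325, against 48.7 between them). It was the highest of its group in 12 of the 52 genes and the lowest in 33. The genes share the same 6 libraries and moved together within them, so that they are not separate pieces of evidence. Other transcripts differed between these groups as well. The 10 Treg genes summed to 888.3 to 1061 CPM with Treg and 497.7 to 736 CPM without, with no overlap. They did not all move alike. Ikzf2 had group means of 221.3 CPM with Treg and 15.9 CPM without, and Foxp3, the defining factor of Treg, of 33.6 and 8.5 CPM. Il2ra (17.8 and 40.9 CPM), Itgae (20.9 and 83.9 CPM) and Tnfrsf18 (211.5 and 237.4 CPM) were lower with Treg. The CD8 or NK markers summed to 109.7 to 278 CPM with Treg and 23.4 to 24.5 CPM without. Most of that sum with Treg was Eomes, which activated CD4 T cells also express, with group means of 159.1 CPM with Treg and 14.1 CPM without. Cd8b1 had means of 6.64 and 5.94 CPM, and Cd8a of 0.215 and 0.0984 CPM. The myeloid markers summed to 24.7 to 59.5 CPM with Treg and 7.01 to 8.63 CPM without. The part of these transcripts in the differences was not tested.

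Kif15 measured 14.1, 19.3 and 12.7 CPM in HP1a WT Tconv without Treg and 57, 56.1 and 38.5 CPM with Treg, with no overlap. The log2 fold change was 1.73 ± 0.23 (SE, adjusted p = 0.00669 by edgeR's quasi-likelihood test), and without HP1a WT Tconv replicate 1 it was 1.66 with adjusted p = 0.0553 (edgeR). Smc4 measured 387.9, 467.9 and 502.5 CPM with Treg against 219.1 to 253.6 CPM without, again with no overlap, a difference of 0.94 ± 0.16 (SE, adjusted p = 0.014, edgeR) just under the fold threshold. The Smc4 level with Treg thus overlapped the naive HP1a WT range of 467.3 to 566.2 CPM, with 2 of the 3 libraries inside it and the third between it and Tconv alone. Cenpe, at 67.8, 43 and 42 CPM with Treg against 22.6, 31.6 and 16.7 CPM without, differed by 1.13 (adjusted p = 0.06, edgeR), and Ska1, at 15, 11.7 and 15.1 CPM against 3.54, 10 and 6.1 CPM, by 1.10 (adjusted p = 0.142, edgeR). Mki67 ranged from 87.9 to 127.2 CPM with Treg and from 61.8 to 99.6 CPM without, ranges that overlap (0.54, adjusted p = 0.226, edgeR). Outside the 52 genes, the brake Cdkn2c was called higher too, by 1.6 (adjusted p = 0.00448, edgeR), and of the lists of related genes it was the one call in this comparison.

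In the other 3 Treg comparisons edgeR called none of the 52 genes, and DESeq2 none either. In HP1a KO, where 0.44% of all genes were called, the median was 0.16 and the range −0.51 (Anln) to 0.41 (Smc4). At an unadjusted p under 0.05, 1 gene was higher (7.79% of all genes) and 1 was lower (8.03%). In HP1g WT, where 0.0126% of all genes were called, the median was 0.28 and the range −0.05 (Ccnb2) to 0.60 (Anln). By the unadjusted test 1 gene, Smc4, was higher (2.83% of all genes). With the libraries numbered 1 left out the HP1g WT median was 0.36, again with 0 called and 1 gene past the unadjusted test (5.41% of all genes). In HP1g KO, where 0% of all genes were called, 50 of the 52 genes lay below 0 (50.7% of all genes lay above it), with a median of −0.41, from −0.79 (Plk1) to 0.36 (Smc4), and none passed the unadjusted test. Smc4 therefore differed by 0.94, 0.41, 0.41 and 0.36 across the 4 comparisons, with adjusted p = 0.014, 0.188, 0.694 and 0.727 by edgeR's quasi-likelihood test. Its libraries with Treg lay above those without in each of the 4, which for HP1g WT reads 253.8, 238 and 311 CPM against 186.3, 195.1 and 223.2 CPM and for HP1g KO 365.7 and 325.5 CPM against 220.5, 315.3 and 280.7 CPM. Kif15 differed by 0.30 in HP1a KO, 0.33 in HP1g WT and −0.03 in HP1g KO. It measured 10, 24.7 and 17.3 CPM with Treg in HP1a KO against 9.56, 18 and 15.3 CPM without, which overlap.

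The HP1g KO groups depend on the library numbered 1. Tconv without Treg held 48.7, 223 and 222.7 CPM of Mki67, 8.01, 73 and 60.6 CPM of Cdk1 and 5.23, 71.5 and 65.9 CPM of Plk1, so that replicates 2 and 3 stood far above replicate 1. With the grafted HP1g libraries numbered 1 left out, 7 genes were called lower with Treg in HP1g KO (Cdk1, Ncapg, Plk1, Sgo2a, Tpx2, Ttk and Ube2c), where 0.876% of all genes were called in either direction, and the median was −0.85, from a fit in which the Treg group has 1 library that is assumed to vary like the others. Leaving out Tconv replicate 1 alone gave a median of −0.89 with 0 called and 48 genes past the unadjusted test (12.2% of all genes), whereas leaving out Tconv replicate 2 gave −0.03 and replicate 3 gave −0.18, each with 0 past it (5% and 4.18% of all genes). The spread between the replicates of HP1g KO Tconv was thus larger than this difference.

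The third question was whether the KO changes these genes. In naive cells no gene was called by edgeR or DESeq2 in either line. In HP1a, where 0% of all genes were called, 50 of the 52 genes were tested, with a median of −0.05 and a range of −0.83 (Bub1) to 0.56 (Anln). At an unadjusted p under 0.05, 1 gene was higher (1.04% of all genes) and 2 were lower (0.83%). In HP1g, where 0.00669% of all genes were called, 44 were tested, with a median of 0.20 and a range of −0.42 (Cdk1 and Pttg1) to 1.18 (Bub1b), and 3 passed the unadjusted test, Birc5, Nuf2 and Bub1b, all higher (2.89% of all genes). Bub1b measured 1.11, 1.3 and 1.2 CPM in naive HP1g KO and 0.421, 0.355 and 0.839 CPM in WT. The untested genes, such as Ska1 and Ttk, were too low in naive cells to pass the filter on low counts.

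In Tconv without Treg no gene was called in either line by edgeR or DESeq2. In HP1a, where 0.103% of all genes were called, the median was 0.04, the range −0.33 (Cks2) to 0.35 (Kif4), and none passed an unadjusted p under 0.05. Mki67 measured 65.8, 103 and 68.1 CPM in HP1a KO and 63.3, 99.6 and 61.8 CPM in WT, nearly the same 3 values in each genotype. In HP1g, where 0.0437% of all genes were called, 50 of 52 genes were above 0 (53% of all genes), with a median of 1.03, the highest being Ska1 at 1.25. By the unadjusted test 1 gene was higher (5% of all genes), Smc4 (0.45, adjusted p = 0.45, edgeR). Mki67 measured 48.7, 223 and 222.7 CPM in HP1g KO and 55.4, 75.5 and 123.6 CPM in WT. The KO libraries thus enclosed the WT ones: replicates 2 and 3 were both above the 3 WT libraries in 50 genes, and replicate 1 was below all 3 in 48, the exceptions being Smc4, Cenpa, Ndc80 and Pttg1. Replicate 2 was the highest of all 35 libraries in 45 genes and replicate 3 in 4. These counts of libraries above or below others were made over the 52 genes only. The like shares of all genes were not counted, so how particular they are to these genes is not shown. Leaving out 1 library at a time moved the median from 0.62 to 1.56, with 0 called each time. Without KO replicate 1 it was 1.49 and 48 genes passed the unadjusted test (18.2% of all genes), and without WT replicate 3 it was 1.56 and 1 passed (9.33%). Without KO replicate 2 it was 0.62, without KO replicate 3 it was 0.78 and without WT replicate 1 it was 0.73, each with 0 past the unadjusted test (5.7%, 5.69% and 6.62% of all genes). With both libraries numbered 1 left out the median was 1.23 and 46 passed (16.3% of all genes), again with 0 called.

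**Figure D4:**
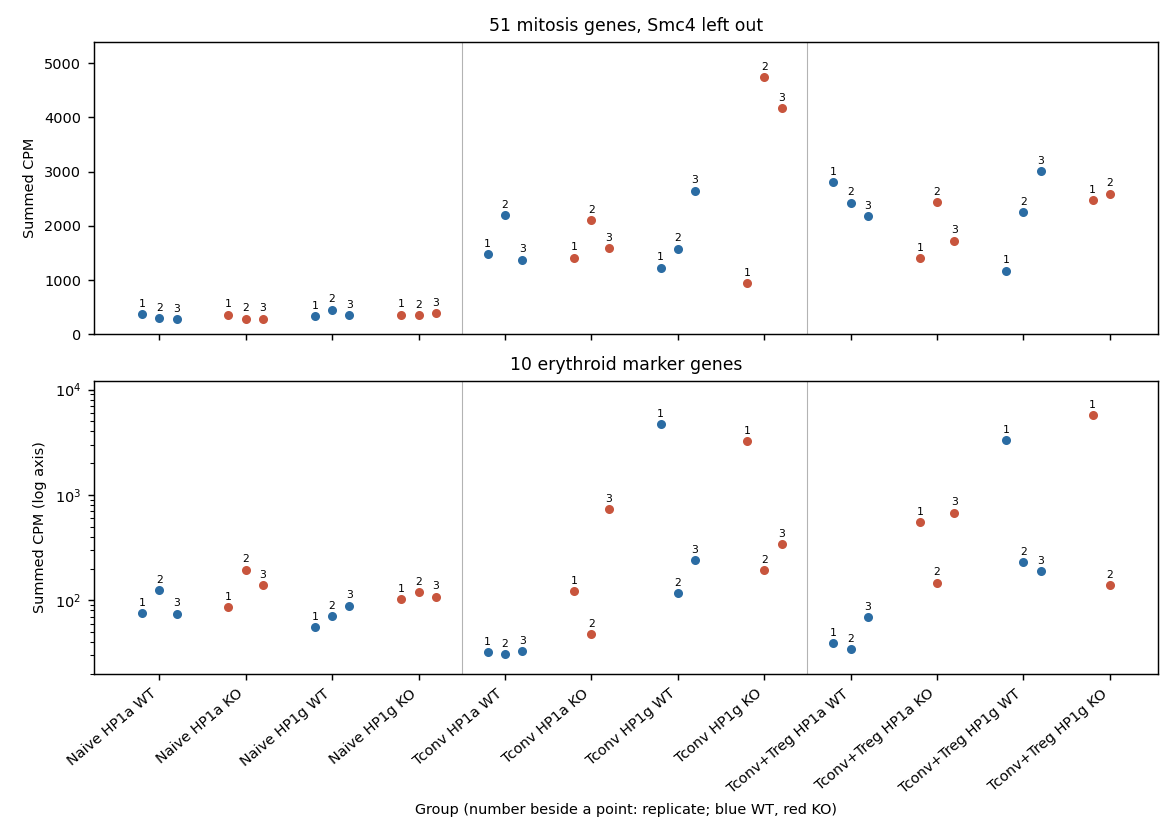
The upper panel gives the summed CPM of the mitosis genes without Smc4 in each library, and the lower panel the summed CPM of the erythroid markers on a log axis, by group, with the replicate number beside each point. In HP1g KO Tconv the mitosis sum is 942.9 in replicate 1 and 4175 and 4743 in the others, and replicate 1 of each grafted HP1g group has an erythroid sum of 3253 to 5705.

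Summed over the 51 genes other than Smc4, naive libraries held 283.5 to 455.3 CPM of these transcripts. Tconv held 1377 to 2197 CPM in HP1a WT, 1415 to 2111 CPM in HP1a KO, 1231 to 2650 CPM in HP1g WT and 942.9 to 4743 CPM in HP1g KO. With Treg the sums were 2178 to 2809, 1411 to 2445, 1174 to 3004 and 2478 to 2597 CPM. Every grafted library lay above every naive one, and the widest group was HP1g KO Tconv. The 4 libraries with a high erythroid sum were the lowest of their group in most mitosis genes in HP1g WT Tconv (49 of 52), HP1g KO Tconv (51) and HP1g WT with Treg (50), but not clearly so in HP1g KO with Treg (34, with 18 in the other library). Hbb-bs alone reached 2767 CPM, Rhag was at 0 in 8 libraries, and Tfrc of this list is also expressed by activated T cells. The part of erythroid RNA in the lower mitosis levels was not tested.

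With Treg, 48 of the 52 genes had lower levels in HP1a KO than in HP1a WT (49.2% of all genes had higher ones), with a median of −0.43 against −0.01 for all genes, and none was called by edgeR, where 0.123% of all genes were called. At an unadjusted p under 0.05, 12 genes were lower (6.03% of all genes), and 11 genes had no overlap in that direction (9.84% of all genes), both higher shares than among all genes. These values rest in part on single libraries: without KO replicate 1 the median was −0.25 and 2 genes passed the unadjusted test in either direction (7.82% of all genes), without KO replicate 3 again 2 passed (6.89%), and without KO replicate 2 the median was −0.72 and 25 passed (10.4%). WT replicate 3, which stood apart from its partners over all genes as given above, is part of this comparison too. The 2 lowest were Kif15 and Ska1. Kif15 measured 10, 24.7 and 17.3 CPM in KO against 57, 56.1 and 38.5 CPM in WT, without overlap, a log2 difference of −1.56 ± 0.34 (SE, adjusted p = 0.134, edgeR), and Ska1 measured 5.7, 7.86 and 5.84 CPM against 15, 11.7 and 15.1 CPM, a difference of −1.12 (adjusted p = 0.145, edgeR). DESeq2 called both. Smc4 measured 259.5, 362.9 and 293.6 CPM against 387.9, 467.9 and 502.5 CPM (−0.59, adjusted p = 0.278, edgeR), and Cenpe 23.3, 39.1 and 27.5 CPM against 67.8, 43 and 42 CPM (−0.78, adjusted p = 0.319, edgeR), both without overlap. By role, the median was −0.75 for the kinetochore and centromere genes, −0.62 for the passenger complex and −0.19 for the midzone genes. Mki67 ranged from 53.5 to 126.4 CPM in KO and from 87.9 to 127.2 CPM in WT, which overlap (−0.33, adjusted p = 0.718, edgeR). The groups also differed in other transcripts: 10 myeloid markers summed to 176.1 to 532 CPM in KO and 24.7 to 59.5 CPM in WT, 6 CD8 or NK markers to 42 to 51.9 CPM and 109.7 to 278 CPM, 10 erythroid markers to 147.2 to 679.7 CPM and 34.4 to 68.7 CPM, and 10 Treg genes to 466.2 to 676.1 CPM and 888.3 to 1061 CPM. Of the CD8 or NK markers, Eomes had group means of 37.8 CPM in KO and 159.1 CPM in WT, and Cd8b1 of 5.04 and 6.64 CPM. The part of these transcripts in the differences of the mitosis genes was not tested.

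In HP1g with Treg, edgeR called 0% of all genes between KO and WT. The study, using DESeq2 with the same thresholds, reported clusters of genes overexpressed in the KO in this comparison. The share of 0% is thus that of edgeR and does not mean that no gene differs. None of the 52 genes was called by edgeR or DESeq2 here, and none passed the unadjusted test in edgeR. The median was 0.31 and the range −0.29 (Cks2) to 0.83 (Kif15). Kif15 measured 45.6 and 32.6 CPM in the 2 KO libraries and 11.5, 23.9 and 31.1 CPM in WT, the KO libraries being above the WT ones (adjusted p = 0.51, edgeR). Smc4 was likewise above, at 365.7 and 325.5 CPM against 253.8, 238 and 311 CPM, and these were the 2 genes without overlap (15% of all genes). Mki67 measured 127.4 and 129.4 CPM in KO, inside the WT range of 51.2 to 174.6 CPM. With the libraries numbered 1 left out the median was −0.005 and 1 gene passed the unadjusted test (10.3% of all genes).

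Interaction terms asked whether these effects differ between genotypes or lines, and edgeR called none of the 52 genes in the 4 that were fitted. The Treg effect in KO minus that in WT had a median of −0.43 in HP1a (0.139% of all genes called), with Kif15 lowest at −1.44 (adjusted p = 0.28, edgeR) and 6 genes lower at an unadjusted p under 0.05 (4.55% of all genes). Leaving out 1 library moved this median from −0.76, without HP1a KO replicate 2 with Treg, to −0.24, without HP1a KO Tconv replicate 2. In HP1g that median was −0.71 (0% of all genes called), with Ttk lowest at −1.06 and none past the unadjusted test. It ran from −1.25 without HP1g WT Tconv replicate 3 to −0.26 without HP1g WT replicate 3 with Treg, and with the libraries numbered 1 left out it was −1.22, with 18 genes past the unadjusted test (5.57% of all genes). With Treg, the KO effect in HP1a minus that in HP1g had a median of −0.75 (2.72% of all genes called), with Kif15 lowest at −2.38 ± 0.57 (SE, adjusted p = 0.0522, edgeR). By the unadjusted test 5 genes were lower (9.86% of all genes). DESeq2, whose share of all genes is not given here, called Kif15. That median was −1.15 without HP1g WT replicate 3 with Treg, −0.395 without replicate 1 of the same group and −0.45 with the libraries numbered 1 left out. The Smc4 term was −0.96 (adjusted p = 0.0759, edgeR). The Treg effect on WT cells in HP1a minus that in HP1g had a median of 0.34 (1.56% of all genes called), with Kif15 highest at 1.39 (adjusted p = 0.281, edgeR). By the unadjusted test 2 genes were higher (7.61% of all genes), and the median was 0.22 with the libraries numbered 1 left out. In this last term and in the genotype terms DESeq2 called none of the 52. These terms share libraries with the comparisons above, and Kif15 was at one end of the range in 3 of them. In the terms between lines, a Treg dose that differed between the lines cannot be told apart from the line.

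**Figure D5:**
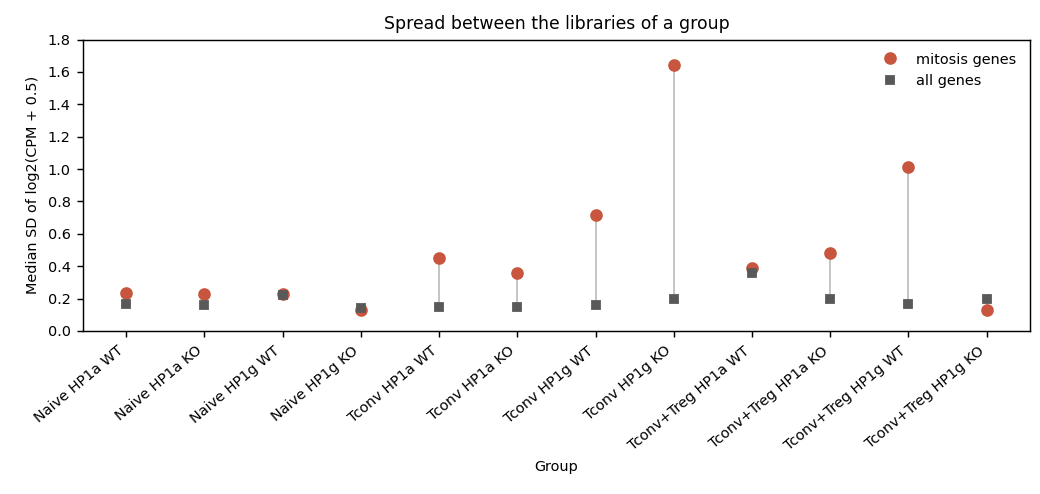
For each of the 12 groups the median, over genes, of the standard deviation (SD) of log2(CPM + 0.5) between libraries is shown for the mitosis genes (circles) and for all genes (squares). The circles stand at 1.64 in HP1g KO Tconv, where the square is at 0.198, and near the squares in the naive groups.

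The mitosis genes also varied together between libraries of one group. In naive cells the median SD of log2(CPM + 0.5) between libraries was 0.13 to 0.233 for the 52 genes, beside 0.14 to 0.224 for the 19700 genes expressed. In each naive group 22 to 25 of the 52 genes had a mean under 1 CPM, where the offset of 0.5 CPM lowers the SD. The naive and grafted spreads of these genes are thus not measured at a like level. In Tconv it was 0.453 (all genes 0.146) in HP1a WT, 0.358 (0.147) in HP1a KO, 0.714 (0.162) in HP1g WT and 1.64 (0.198) in HP1g KO. With Treg it was 0.391 (0.357) in HP1a WT, 0.48 (0.2) in HP1a KO, 1.01 (0.168) in HP1g WT and 0.128 (0.198) in HP1g KO, the last from 2 libraries. With the libraries numbered 1 left out, 2 libraries a group remained and the values were 0.621 (0.12) in HP1g WT Tconv, 0.148 (0.099) in HP1g KO Tconv and 0.342 (0.126) in HP1g WT with Treg, and HP1g KO with Treg kept 1 library and has no SD. With all libraries, the grafted groups other than HP1a WT with Treg and HP1g KO with Treg thus had over 2 times the spread in these genes that all genes had. The order of libraries was nearly the same from gene to gene: replicate 2 was the highest in 51 of the 52 genes in HP1a WT Tconv, in 52 in HP1a KO Tconv and in 51 in HP1a KO with Treg, and replicate 3 in 50 in HP1g WT Tconv and in 49 in HP1g WT with Treg. The genes of a library are therefore not independent of each other, and a median over them moves with single libraries.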

How the data were processed

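The deposited table holds estimated counts per gene that the authors made with Salmon within nf-core/rnaseq, after trimming with Cutadapt and Trim Galore and alignment with STAR to GRCm39. Libraries were made with SMART-Seq v4 PLUS, which does not mark strand. Of the values, 82.9% were whole, and they were rounded before testing. The 52 genes, the lists and the tests were chosen with earlier results of these data known. Each comparison used the libraries of its own groups in edgeR 4.0.16 (R 4.3.3, limma 3.58.1) with filterByExpr, TMM and the robust quasi-likelihood test, over all genes tested. DESeq2 1.42.0, other filters, scalings and fits, a replicate block and leaving out libraries were alternatives. Shares of all genes are those of the edgeR fits. With DESeq2 the study reported more genes between KO and WT in HP1a Tconv, with and without Treg, and in HP1g with Treg. CPM were TMM-scaled over the 35 libraries, with an offset of 0.5 CPM on the log2 scale.

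Genes given with values were a set of 22, the 3 highest and 3 lowest of each comparison, and called genes where 5 or fewer were called. Others (Aurka, Incenp, Kif23, Ska1 and Kif15 outside the comparisons in which they were extreme) were named after their values were seen. Of 34 replicate pairs, 0 were identical, and the lowest chi-square per gene was 8.37, far above sampling noise. Some libraries stood apart from their partners by this measure. In HP1a WT with Treg, replicate 3 stood at 296 and 325 against its partners, with 48.7 between these. In naive HP1g WT, replicate 2 stood at 296 and 277, with 11.9 between its partners. Replicate 1 stood at 118 and 121 in naive HP1a KO, and at 147 and 159 in naive HP1a WT. At 37029519 to 63042245 counts per library, 3 counts set the limit of detection. Counting intervals cover counting error only. The replicate numbers deviated together, by the rule of a correlation over 0.1 in each of 3 pairs, between KO and WT in naive HP1a cells (0.441 to 0.794) and between HP1g WT Tconv with and without Treg (0.132 to 0.432).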

Additional observations from a re-analysis of the deposited data

Results flagged for a closer look

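The library of HP1g KO Tconv with Treg that the study left out, and that enters no comparison here, held 5 of the 52 mitosis genes at over 2 times the highest level in any of the 35 libraries used, which is why it is given here. Prc1 measured 1708 CPM in it, against at most 149 CPM elsewhere. Cdk1 measured 972.5 CPM against at most 73 CPM, and Espl1, which encodes separase, 440.5 CPM against at most 43.9 CPM. Ncapd2 measured 439 CPM against at most 123.2 CPM, and Kif20a 345.1 CPM against at most 80.5 CPM. Of the other genes, 4 lay below the lowest library used. The study names abnormal GC content, exonic share and end bias of this library as its reason for leaving it out, and their part in these levels was not tested.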

How the results depend on the processing

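The rise of these genes from naive cells to Tconv kept its direction in the median under every alternative run, and the number called moved by less than 1.5 times. In the Treg comparison of HP1a WT cells, where Kif15 alone was called, 2 genes were called without the fold threshold (Kif15 and Smc4) or without the filter on low counts (Kif15 and Cenpe). DESeq2 called 3 (Kif15, Cenpe and Ska1), and so did all libraries of the line in 1 fit, which called 3 (Kif15, Cenpe and Cdca3). Leaving out 1 library at a time gave 0 to 4 called, 0 without HP1a WT Tconv replicate 1 and 4 without replicate 2. Between HP1a KO and WT with Treg, where none was called, DESeq2 called 2 (Kif15 and Ska1), and Kif15 was the 1 gene called without the filter and the 1 gene called with the line in 1 fit. For the KO effect by line with Treg, Kif15 was the 1 gene called by DESeq2 and in the joint fit, and leaving out libraries gave 0 to 1. The shares of all genes that DESeq2, the fit without the filter and the joint fit called are not given here. Whether these counts exceed those shares is therefore not shown. With the grafted HP1g libraries numbered 1 left out, chosen after the data were seen, 7 genes were called lower with Treg in HP1g KO (0.876% of all genes called), the median between HP1g KO and WT with Treg turned to −0.005, and Pttg1 (HP1g KO Tconv against naive) turned to −0.052 and Cks2 (HP1g Tconv, KO against WT) to 0.009. With the excluded library put back, the Treg difference in HP1g KO turned to 0.155 for Kif15 and −0.154 for Smc4. The causes were not tested.

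With the replicate number as a block, the Treg median in HP1g KO turned to 0.46, with Kif15 at 0.724 and Plk1 at 0.468, and the genotype by Treg median in HP1g turned to 0.145, with Ttk at 0.103. The block called 1 gene, Kif15, in the Treg effect by line and moved the HP1g KO against WT median with Treg to 0.953. It changed no other count of calls by over 1.5 times, and the labels do not say that a number marks a shared animal.

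Leaving out 1 library at a time, medians changed sign for Treg in HP1a KO (−0.148 to 0.358) and HP1g WT (−0.159 to 0.769), for KO against WT in naive HP1a (−0.139 to 0.03), HP1a Tconv (−0.161 to 0.344) and HP1g with Treg (−0.038 to 0.751), and for the Treg effect by line (−0.177 to 0.769). So did Cenpa (−0.136 to 0.458) and Pttg1 (−0.45 to 0.239) in HP1g WT and Pttg1 (−0.052 to 0.266) in HP1g KO, Tconv against naive. With Treg, Pttg1 ran from −0.265 to 0.238 in HP1a WT, Kif15 from −0.063 to 0.57 in HP1a KO and −0.503 to 0.445 in HP1g KO, and Ccnb2 from −0.458 to 0.838 in HP1g WT. Between KO and WT with Treg, Foxm1 ran from −0.303 to 0.313 in HP1a and Cks2 from −0.769 to 0.051 in HP1g. Of the interaction terms, Pttg1 ran from −0.085 to 0.421 (genotype by Treg, HP1a), Cks2 from −0.526 to 0.333 (HP1g) and Anln from −0.624 to 0.097 (Treg by line). Where 1 library of a group remains, it is assumed to vary like the other groups.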
